A study of Huso dauricus x Acipenser schrenckii with 16 samples.

Results

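The nuclear genes of respiratory complexes II to V were taken from the deposited ovary gene table of a farmed hybrid sturgeon. A row was a member if the first entry of its description named succinate dehydrogenase, the cytochrome b-c1 complex, cytochrome c1, a cytochrome c oxidase subunit or assembly protein, or an ATP synthase subunit, and 5 matching rows of the mitochondrial genome were left out. This gave 102 of the 41685 rows: 8 of complex II, 17 of complex III, 36 of complex IV, 26 of complex V and 15 assembly factors of complexes II and IV. They covered 47 distinguishable subunits or factors, of which 39 had more than 1 row and 31 had exactly 2. The fish were adult females of the cross Huso dauricus (mother) with Acipenser schrenckii (father), raised at a single farm under normal breeding conditions. Ovaries came from a population ranked high for caviar yield and from a second population ranked low, with 8 females each. Because each yield group is a population of its own, yield cannot be told apart from any other difference between the populations. The labels give no age, ovarian stage or batch for the fish.

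Complex II (succinate dehydrogenase) oxidises succinate and passes the electrons to ubiquinone, complex III (cytochrome b-c1) passes them on to cytochrome c, and complex IV (cytochrome c oxidase) passes them to oxygen. Complexes III and IV pump protons, and complex V (ATP synthase) uses the resulting gradient to make ATP. Complex II is encoded in the nucleus alone, while the other complexes also contain subunits encoded in mitochondrial DNA. Growing oocytes build up a very large stock of mitochondria, which the embryo inherits. Sturgeons descend from a genome duplication, and many of their genes are present as pairs of copies.

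Library totals ran from 37362125 to 60873931 counts, and the members took between 0.435% of the counts, in low-yield 2, and 0.969%, in low-yield 8. In high yield the libraries matched in 4 pairs (1 with 5, 2 with 6, 3 with 7, 4 with 8) that were almost identical, with Spearman's rho across genes from 0.987 to 0.992 within a pair and 0.965 at most between any other libraries. Each pair was summed and counted as 1 sample, written 1+5 and so on, which left 4 high-yield samples against 8 low-yield libraries, 12 in all. Summed over 163 rows, the marker genes of oocytes (growth factors, egg envelope and germ cell genes) reached 50722 to 72869 CPM (counts scaled to library size, with TMM factors) in high yield and 34091 to 153374 CPM in low yield, so oocyte transcripts were abundant in every sample. Markers of fibroblasts and matrix summed to 987 CPM in low-yield 2 and 1717 CPM in low-yield 5 over 40 rows, against a low-yield median of 192 and a high-yield range of 92.6 to 216 CPM, and none of their rows was at 0 in every sample. In bulk tissue, fewer cells of a type cannot be told apart from less RNA per cell.

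No member differed between the yield groups at the threshold, yet most members lay somewhat higher in high yield. With edgeR's quasi-likelihood test adjusted over 30009 tested genes, 0 of 100 tested members passed an adjusted p of 0.05 in either direction, and the background was 0% for all genes as well. At an unadjusted p of 0.05, 6 members were higher and 0 lower, against a background of 5.21% higher and 3.36% lower over all genes, a share near the background. The log2 fold change, high over low yield, was positive in 81 of 100 members, against 48.6% of all tested genes. Its median was 0.33 over the members and -0.02 over all tested genes. Of the 88 members with a mean of at least 5 CPM, 78 were positive, against 57.2% of all genes at that level. Of the 12 members under 5 CPM 3 were positive, against 37.5% of all genes under 5 CPM.

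The median was positive in each complex. The median log2 fold change was 0.20 in complex II (6 of 8 positive), 0.31 in complex III (15 of 17), 0.28 in complex IV (26 of 35), 0.39 in complex V (21 of 25) and 0.42 in the assembly factors (13 of 15). Members are not replicates, and no list was tested as a whole. DESeq2 on the same samples also called 0 members (backgrounds 0.0833% higher and 0.203% lower), with 7 higher and 1 lower at an unadjusted p of 0.05 (backgrounds 5.37% and 5.56%). The size of the median depended on single samples: over all members it was 0.22 without high-yield pair 3+7 and 0.23 without low-yield 2. It was 0.18 without low-yield 2 and 5 and 0.16 without low-yield 2 and 6. Low-yield 2 and 6 held the lowest member levels and pair 3+7 the highest, so a smaller median without them follows from that. The number of members higher at an unadjusted p of 0.05 was 1 without pair 1+5 or without pair 2+6 (backgrounds 2.2% and 2.42%) and 3 without low-yield 3 (4.1%). It was 13 without pair 4+8 or without low-yield 5 (6.79% and 7.79%) and 15 without low-yield 8 (5.93%). When the 16 libraries were entered separately, 0 of 97 tested members passed (backgrounds 0.0108% higher and 0.0723% lower) while 15 were higher and 2 lower at an unadjusted p of 0.05, against backgrounds of 9.13% and 10.7%.

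Most marker rows of each cell type listed, oocytes included, had a negative log2 fold change, though none passed an adjusted p of 0.05. Of all tested genes 48.6% were positive, and of those with a mean under 5 CPM 37.5%, with a median of -0.30. The lists were not compared with genes of their own level. Oocyte markers had 53 of 162 tested rows positive (median -0.33) and red blood cell markers 3 of 10 (median -0.65). Granulosa markers, typical of the follicle cells around each egg, summed over 18 rows to 12.3, 13.7, 17.5 and 19.4 CPM in the pairs and to between 19.8 and 85.0 CPM in low yield. The 2 sums did not overlap, but by little, 19.4 against 19.8 CPM. Among single genes, all 4 pairs lay below all 8 low-yield libraries in 0.233% of all tested genes. Of the granulosa rows, 0 of 13 tested had a positive log2 fold change (median -1.64), and the median was -0.83 without low-yield 2 (1 of 12 positive). Endothelial markers summed to 20.3 to 39.8 CPM in high and 12.7 to 248 CPM in low yield (2 of 18 positive, median -1.87), and leukocyte markers to 13.0 to 23.2 and 8.66 to 117 CPM (2 of 15 positive, median -1.11). The fibroblast and smooth muscle lists had 1 of 36 and 2 of 16 rows positive. No row of these lists was at 0 in every sample. Low-yield 2 and 5 held the highest granulosa, endothelial, leukocyte and fibroblast sums, so higher medians of these lists without them follow from that. Without low-yield 2 and 5 the members' median was 0.18, and 52.2% of all tested genes were positive, with a median of 0.03. In that fit the median was -0.33 for granulosa (4 of 11 positive), 0.14 for endothelium (10 of 17) and 0.21 for leukocytes (8 of 13). It was 0.28 for smooth muscle (11 of 16), -0.10 for fibroblasts and matrix (17 of 36), -0.13 for oocytes (72 of 160) and 0.33 for red blood cells (4 of 7). The part of these cell types in the members' difference was not tested.

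**Figure D1:**
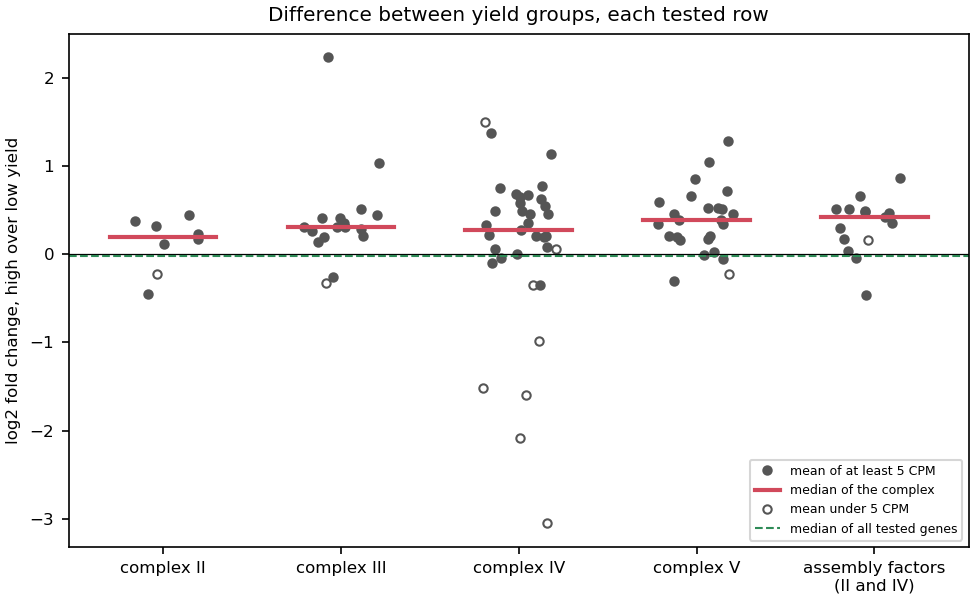
Log2 fold change of each of the 100 tested rows (high over low yield, vertical axis) by complex, with the median of each complex as a red line and the median of all 30009 tested genes (-0.02) as a dashed line. Filled points have a mean of at least 5 CPM and open points less. The medians lie between 0.20 and 0.42, and the lowest values, in complex IV, belong to rows under 5 CPM.

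The samples differed more from each other than the groups did, and many members had their lowest value in the same sample. Low-yield 2 held the lowest value of the 12 samples in 73 of 100 members, against 15.6% of all tested genes, and pair 3+7 held the highest in 31, against 9.16%. Both shares cover genes of every level, and none was taken at the level of the members. The highest value lay in low-yield 8 in 16 members and in pair 1+5 in 15. Low-yield 2 was also lowest and pair 3+7 highest in the summed CPM of complex I, other assembly factors, carriers and channels, and tricarboxylic acid cycle enzymes, described below. The median deviation of the members from their own mean, on the log2(CPM + 0.5) scale, was 0.26, 0.10, 0.55 and 0.02 in pairs 1+5, 2+6, 3+7 and 4+8. In low-yield 1 to 8 it was 0.16, -1.21, -0.03, -0.10, -0.12, -0.47, 0.25 and 0.47. Low-yield 2 and 6 therefore lay lowest, while low-yield 1, 7 and 8 stood among the high-yield pairs, so the groups overlapped. Over all tested genes the same deviation lay between -0.06 and 0.05 in every sample. TMM scaling brings the bulk of genes near 0, so this small range follows from the scaling. Low-yield 2 also held the most detected genes, 36856, and a high level of the matrix markers given above, whose part in its low values was not tested.

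**Figure D2:**
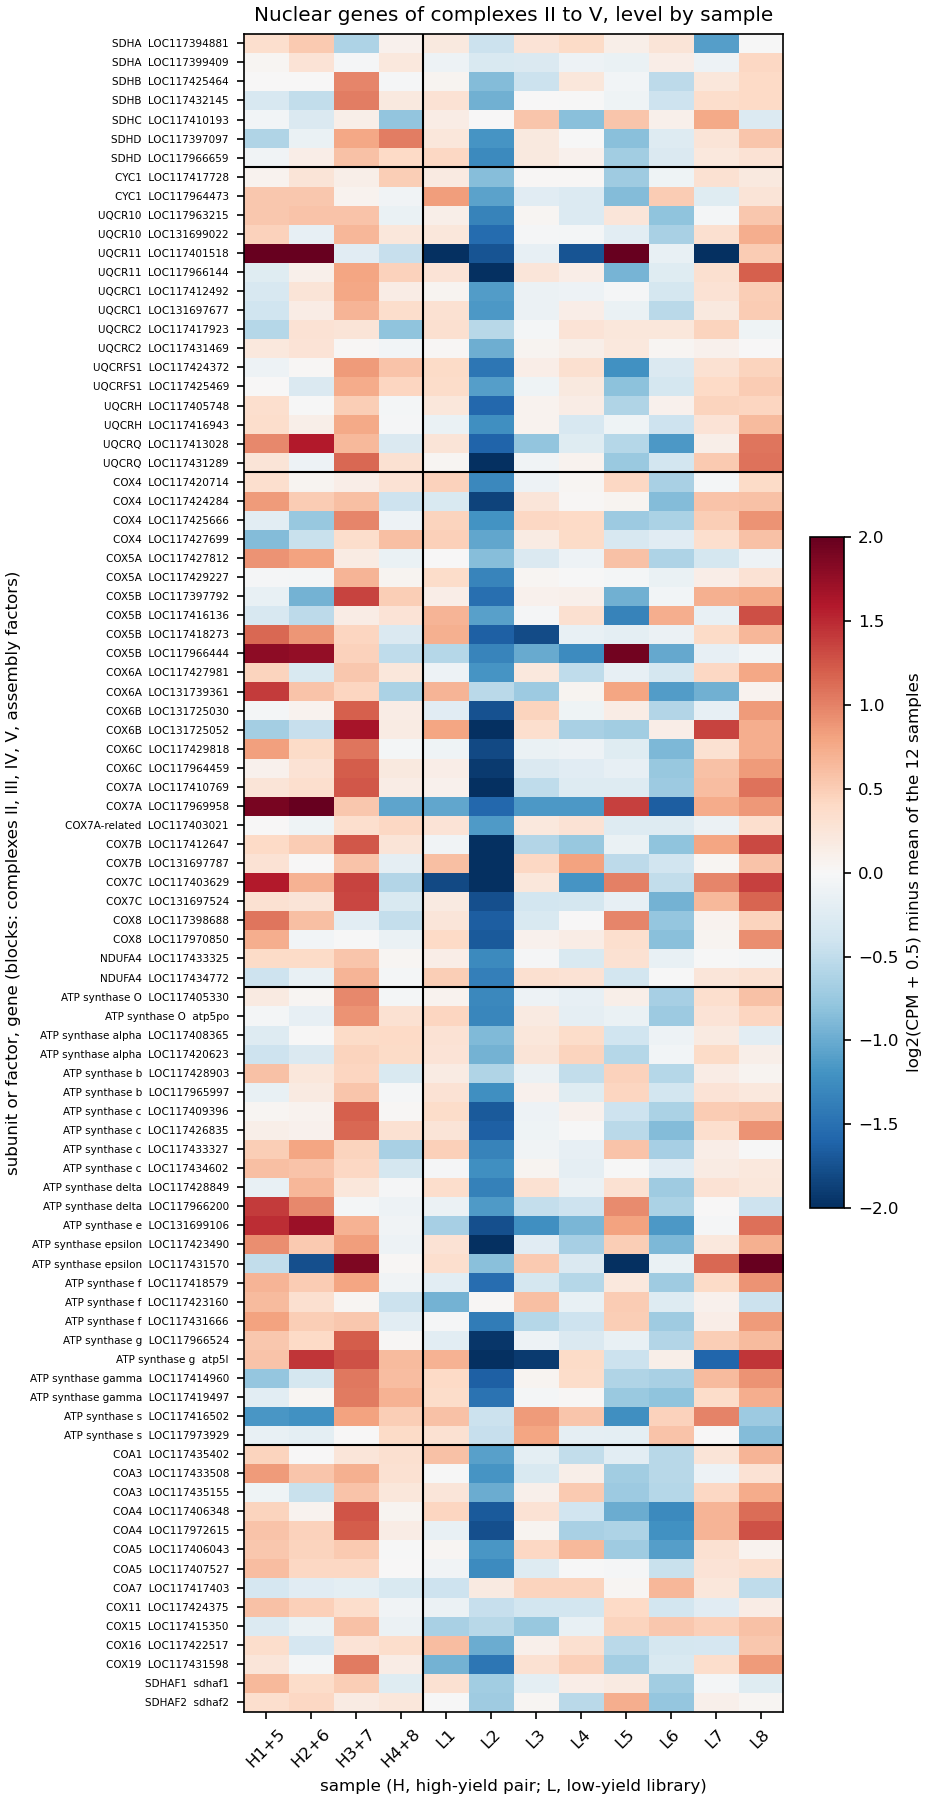
Level of the 88 tested rows with a mean of at least 5 CPM in the 4 high-yield pairs (H) and 8 low-yield libraries (L). Colour gives log2(CPM + 0.5) minus the mean of the row over the 12 samples, and black lines divide the complexes. The column of low-yield 2 is blue in most rows, pair 3+7 is red in most, and a few rows are red in pairs 1+5 and 2+6 and low-yield 5.

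The summed CPM of all members was 7632, 7806, 11435 and 8067 in the 4 pairs and 2955, 7173 and 9807 as the lowest, median and highest low-yield value. Only pair 3+7 exceeded the highest low-yield library. Summed FPKM, the deposited value per transcript length, gave a ratio of mean high to mean low yield of 1.16 for complex II, 1.21 for complex III, 1.23 for complex IV, 1.38 for complex V, 1.06 for the assembly factors and 1.25 for all members. In CPM these ratios were 1.20, 1.26, 1.25, 1.26, 1.27 and 1.25. The length implied by the ratio of counts to FPKM was under 200 bases for 7 members and longer than the genomic span for 35 of 98. A ranking of genes by FPKM and the FPKM sums are therefore uncertain. UQCRC1 row LOC131697677, with an implied 154 bases, held 1171 of the mean 1899 FPKM of complex III in high yield. COX6B rows LOC131725030 and LOC131725052, with 131 bases each, held 863 and 763 of the 2787 FPKM of complex IV. The ranking was used here only to choose some of the rows to name, whose values are given in CPM.

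**Figure D3:**
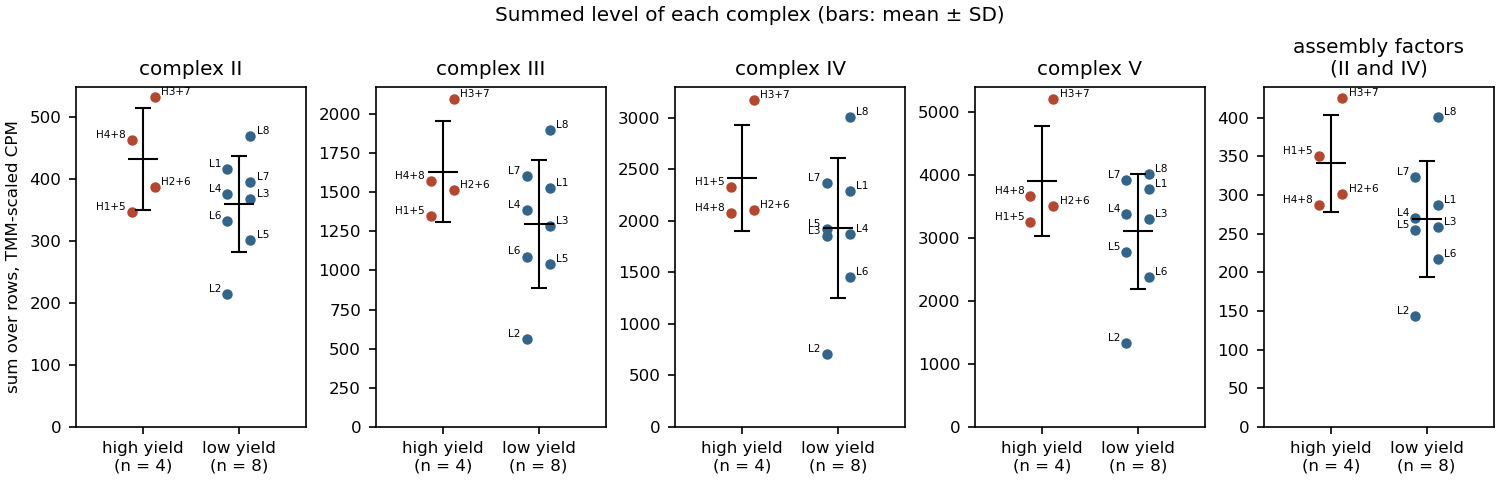
Sum of TMM-scaled CPM over the rows of each complex in every sample, with mean ± SD (bars, n = 4 high-yield pairs and n = 8 low-yield libraries). All axes start at 0. Pair 3+7 is the highest and low-yield 2 the lowest sample in each of the 5 panels, and the groups overlap in all of them.

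In complex II, 6 of 8 rows had a positive log2 fold change. SDHA (LOC117399409), the flavoprotein that holds the succinate site, stood at 90.9, 108, 87.1 and 103 CPM in the 4 pairs and at 71.5, 82.5 and 118 CPM as the lowest, median and highest low-yield library. All high-yield values lay inside the low-yield range, with a difference of 0.17 ± 0.17 (SE) in log2 fold change, with an edgeR adjusted p of 0.751. SDHB (LOC117425464), the iron-sulfur subunit, stood at 46.1, 46.4, 91.0 and 45.4 CPM in the pairs and at 24.9, 46.1 and 60.5 CPM in low yield. Pair 3+7 alone lay above the low-yield range, and the other pairs sat at its median (0.38 ± 0.27 (SE) in log2 fold change, adjusted p = 0.667). SDHD (LOC117397097), a membrane anchor, was at 31.8, 44.2, 83.8 and 99.5 CPM in the pairs against 21.2, 52.1 and 71.9 CPM in low yield. Pairs 3+7 and 4+8 were above every low-yield library and pairs 1+5 and 2+6 below the median (0.45 ± 0.34 (SE) in log2 fold change, adjusted p = 0.692).

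SDHC, the other membrane anchor, was the exception to the sign of this complex in both of its rows. LOC117410193 stood at 5.46 ± 1.51 CPM (SD, n = 4) in high and 7.44 ± 2.57 CPM (SD, n = 8) in low yield, a difference of -0.45 ± 0.33 (SE) in log2 fold change, with an adjusted p of 0.682. LOC117966725 stood at 3.93 ± 2.51 against 4.60 ± 1.52 CPM (-0.23 in log2 fold change, adjusted p = 0.880), and without pair 4+8 the difference was 0.10. Neither difference exceeded the spread between samples.

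In complex III, 15 of 17 rows had a positive log2 fold change. CYC1 (LOC117417728) is the haem protein that hands electrons to cytochrome c. It was at 112, 127, 115 and 150 CPM in the pairs and at 58.4, 107 and 131 CPM in low yield. All pairs lay above the low-yield median, and pair 4+8 above the whole range (0.31 ± 0.23 (SE) in log2 fold change, adjusted p = 0.677). The Rieske iron-sulfur protein UQCRFS1 (LOC117425469) was at 115, 92.7, 192 and 154 CPM against 52.7, 119 and 163 CPM. Its pairs fell on both sides of the low-yield median (0.29 ± 0.31 (SE) in log2 fold change, adjusted p = 0.759). The other Rieske row, LOC117424372, with a higher mean CPM, had a log2 fold change of 0.42. UQCRC1 (LOC131697677), a core subunit, stood at 186 ± 55.3 CPM (SD, n = 4) against 154 ± 48.8 CPM (SD, n = 8), with a difference of 0.27 ± 0.28 (SE) in log2 fold change, with an adjusted p of 0.761.

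The largest differences of complex III belonged to 1 row each of UQCRQ and UQCR11, both small subunits. UQCRQ (LOC117413028), a subunit that lies close to cytochrome b, was at 43.0, 67.2, 34.7 and 17.8 CPM in the pairs and at 6.88, 16.6 and 46.5 CPM in low yield. Every pair exceeded the low-yield median, but only pair 2+6 was above the range (1.03 ± 0.44 (SE) in log2 fold change, edgeR adjusted p = 0.576). Its second row, LOC117431289, stood at 193 ± 78.7 against 141 ± 78.9 CPM (0.45 in log2 fold change, adjusted p = 0.740). UQCR11 (LOC117401518), the smallest subunit, was at 23.1, 28.2, 2.01 and 1.63 CPM in the pairs, and at 0, 1.26 and 14.3 CPM in low yield, where low-yield 5 was the highest. The log2 fold change of 2.24 ± 1.18 (SE), with an adjusted p of 0.606, therefore rested on pairs 1+5 and 2+6. The second UQCR11 row, LOC117966144, had a log2 fold change of 0.21.

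2 rows of complex III lay against the median. UQCRC2 (LOC117417923), the second core subunit, stood at 49.3 ± 18.5 CPM (SD, n = 4) in high and 58.9 ± 11.9 CPM (SD, n = 8) in low yield (-0.26 in log2 fold change, adjusted p = 0.742). Its other row, LOC117431469, had a log2 fold change of 0.14, and with both rows summed the difference was 0.0012. The UQCRB row LOC117435239, annotated as a long noncoding RNA, was under 0.5 CPM in every sample (-0.32 in log2 fold change, adjusted p = 0.931).

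In complex IV the differences ran from -3.06 to 1.51. COX5A (LOC117427812), a subunit on the matrix side, was at 221, 207, 133 and 108 CPM in the pairs and at 65.3, 104 and 178 CPM in low yield. The pairs all exceeded the low-yield median (0.65 ± 0.27 (SE) in log2 fold change, adjusted p = 0.571). Low-yield 1, 4, 5 and 8, at 119, 110, 178 and 110 CPM, lay above pair 4+8. COX6C (LOC117429818) was at 60.2, 44.3, 71.8 and 33.0 CPM against 9.29, 31.1 and 56.1 CPM, with all pairs above the low-yield median (0.76 ± 0.36 (SE) in log2 fold change, adjusted p = 0.584). Of the 4 COX5B rows, LOC117416136 had a log2 fold change of -0.35 and the other 3 of 0.36 to 1.14.

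Subunits COX4, COX6A, COX6B, COX7A and COX8 exist in vertebrates as isoforms that differ between tissues, and every row of these families was examined. COX4, which takes part in regulation by ATP, had 6 rows, and its abundant rows did not share a sign. LOC117420714 was at 272, 224, 236.3 and 264 CPM in the pairs and at 88.0, 216 and 299 CPM in low yield, with all high-yield values inside the low-yield range (0.21 in log2 fold change, adjusted p = 0.821). LOC117424284 gave 0.49, LOC117425666 -0.04 and LOC117427699 -0.10, with adjusted p of 0.684, 0.978 and 0.935. Without pair 1+5 the last of these rows was at 0.11, and without pair 2+6 LOC117425666 was at 0.17. LOC117435820 stayed near 1.5 CPM in both groups (1.59 ± 0.90 against 1.52 ± 0.61), and LOC117400045 was too low to be tested, at 0.747 CPM in pair 1+5 and 0 in the other pairs.

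COX6B, which faces the intermembrane space, had 2 abundant rows, both highest in pair 3+7. LOC131725030 was at 84.6, 91.2, 199.5 and 95.7 CPM in the pairs and at 25.5, 79.3 and 157 CPM in low yield (0.46 ± 0.37 (SE) in log2 fold change, adjusted p = 0.707). LOC131725052 was at 48.9, 56.5, 248 and 87.8 CPM against 12.01, 92.1 and 199.6 CPM (0.22 ± 0.58 (SE) in log2 fold change, adjusted p = 0.919). In both rows pair 3+7 alone was above the low-yield range, and without it the second difference was -0.55. COX6B rows LOC117431391 and LOC131740188 stayed under 4 CPM in all samples, with log2 fold changes of 1.51 and -1.59 and adjusted p of 0.653 and 0.743.

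The remaining isoform families each combined abundant rows that were a little higher in high yield with scarce rows that were not. Of all tested genes with a mean under 5 CPM, 37.5% were positive. COX6A had LOC117427981 at 47.3 ± 11.4 against 39.0 ± 15.8 CPM and LOC131739361 at 29.0 ± 15.9 against 18.0 ± 9.43 CPM (log2 fold changes 0.28 and 0.68, adjusted p = 0.768 and 0.632). COX7A had LOC117410769 at 52.8 ± 21.5 against 35.1 ± 21.1 CPM (0.59 in log2 fold change, adjusted p = 0.678). COX8 had LOC117398688 and LOC117970850 at log2 fold changes of 0.33 and 0.09, with adjusted p of 0.800 and 0.952. None of these differences exceeded the spread between samples.

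COX7A row LOC117969958 followed another order, with 35.6, 43.9, 13.6 and 4.18 CPM in the pairs and 2.60, 4.07 and 24.4 CPM in low yield. Pairs 1+5 and 2+6 lay above every low-yield library, pair 4+8 lay near the low-yield median, and low-yield 5 was the highest of its group (1.38 ± 0.68 (SE) in log2 fold change, adjusted p = 0.593). COX5B row LOC117966444 was at 89.2, 87.2, 35.3 and 17.8 CPM in the pairs, at 98.7 CPM in low-yield 5 and at no more than 24.5 CPM in the other low-yield libraries. In both rows pairs 1+5 and 2+6 and low-yield 5 were the highest samples.

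4 scarce isoform rows were instead highest in low-yield 5 and second in low-yield 2. These were also the libraries with the most detected genes, 34696 in low-yield 5 and 36856 in low-yield 2. The share of all scarce genes with this order was not taken. The COX8 row LOC117432271 reached 4.65 CPM in low-yield 5 and 3.78 in low-yield 2, and no other sample exceeded 0.596 CPM (-3.06 ± 1.74 (SE) in log2 fold change, adjusted p = 0.617). COX6A row LOC117398324 reached 8.69 and 3.66 CPM there and 1.84 CPM at most elsewhere (-1.51 in log2 fold change, adjusted p = 0.635). The COX7A rows LOC117414968 and LOC117394711 reached 10.5 and 2.11 CPM in low-yield 5 (log2 fold changes -0.98 and -2.08, adjusted p = 0.712 and 0.644). The first of these differed by 0.0075 without low-yield 2 and 5. Smooth muscle markers summed to 2384 CPM in low-yield 5 and 359 CPM in low-yield 2 over 22 rows. The lowest and median low-yield libraries had 155 and 272 CPM and high yield 169 to 364 CPM, so low-yield 2 was not second. The fibroblast, endothelial and leukocyte sums did have low-yield 5 first and low-yield 2 second. The part of these cell types in these rows was not tested.

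In complex V, 21 of 25 tested rows had a positive log2 fold change. The alpha subunit is part of the catalytic head, and its row LOC117420623 had nearly the same mean in both groups. This row was at 282, 308, 511 and 490 CPM in the pairs and 194, 427 and 512 CPM in low yield. Pairs 1+5 and 2+6 lay below and pairs 3+7 and 4+8 above the low-yield median (0.03 ± 0.29 (SE) in log2 fold change, adjusted p = 0.980). The other alpha row, LOC117408365, was the more abundant in every sample, at 752 ± 163 against 668 ± 176 CPM (0.17 in log2 fold change, edgeR adjusted p = 0.841). The gamma subunit (LOC117419497), the central shaft, was at 178, 212, 425 and 335 CPM against 74.0, 205 and 342 CPM. Here 3 pairs lay above the low-yield median (0.52 ± 0.37 (SE) in log2 fold change, adjusted p = 0.670). The other gamma row, LOC117414960, had a log2 fold change of 0.20. The beta subunit, which carries the catalytic sites, had no member, since the rows with its orthology identifier were described as a lipoprotein receptor-related protein; they had log2 fold changes of 0.40 (LOC117426871) and 0.20 (LOC117412101).

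The 4 rows of subunit c, which form the rotating ring in the membrane, had log2 fold changes between 0.40 and 0.52. Subunit g (LOC117966524), of the membrane part, was at 187, 168, 296 and 130 CPM in the pairs and at 33.0, 113 and 200 CPM in low yield. All pairs lay above the low-yield median (0.72 ± 0.36 (SE) in log2 fold change, adjusted p = 0.593).

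The smallest p-values of complex V belonged to subunits delta and e. The delta subunit (LOC117966200), at the foot of the shaft, was at 132, 97.1, 48.4 and 46.6 CPM in the pairs and at 22.6, 37.4 and 95.9 CPM in low yield. Each pair was above the low-yield median, and low-yield 5 stood next to pair 2+6 (0.86 ± 0.36 (SE) in log2 fold change, adjusted p = 0.573). The next low-yield value, 50.2 CPM, exceeded pairs 3+7 and 4+8. The other delta row, LOC117428849, had a log2 fold change of 0.21. Subunit e (LOC131699106), which helps ATP synthase to form dimers, was at 43.7, 51.3, 25.3 and 14.6 CPM against 4.18, 8.69 and 33.5 CPM; the row is annotated as a long noncoding RNA. All pairs were above the low-yield median and pairs 1+5 and 2+6 above the range (1.29 ± 0.52 (SE) in log2 fold change, adjusted p = 0.571).

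The rows of complex V on the other side of 0 were few. Subunit s (LOC117416502), also called coupling factor B, was at 14.3, 13.8, 57.4 and 45.8 CPM in the pairs and at 13.6, 46.7 and 65.7 CPM in low yield. Pairs 1+5 and 2+6 and low-yield 5 were its 3 lowest samples (-0.30 ± 0.47 (SE) in log2 fold change, adjusted p = 0.844). A subunit f row, LOC117424389, stood at 3.72 ± 0.78 against 4.33 ± 0.70 CPM (-0.22 in log2 fold change, adjusted p = 0.813), while the other 3 subunit f rows had positive values of 0.21 to 0.59.

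Assembly factors bring haem, copper and flavin into the complexes and hold their parts together while they are built. COA3 (LOC117433508), which stabilises the newly made COX1 subunit, was at 42.8, 34.7, 38.8 and 29.2 CPM in the pairs and at 10.1, 20.4 and 28.9 CPM in low yield. It was the 1 member in which all 4 pairs lay above all 8 low-yield libraries, a pattern found in 0.4% of all tested genes (0.87 ± 0.25 (SE) in log2 fold change, adjusted p = 0.566). Over the 16 libraries its adjusted p was 0.0686, the smallest of any member. The lowest pair exceeded the highest low-yield library by little, 29.2 against 28.9 CPM, and the second COA3 row, LOC117435155, had a log2 fold change of 0.04.

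COX11 (LOC117424375), which delivers copper to COX1, was at 29.5, 27.4, 25.0 and 18.5 CPM in the pairs and at 14.01, 15.7 and 25.7 CPM in low yield. All pairs lay above the low-yield median, with low-yield 5 between them (0.52 ± 0.21 (SE) in log2 fold change, adjusted p = 0.573). COA4 (LOC117972615), annotated as a long noncoding RNA, stood at 23.3 ± 7.94 CPM (SD, n = 4) against 14.7 ± 10.7 CPM (SD, n = 8), with a log2 fold change of 0.67 (adjusted p = 0.670). The complex II factors sdhaf1 and sdhaf2, which serve the iron-sulfur and flavin subunits, had log2 fold changes of 0.48 and 0.36.

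COA7 (LOC117417403), a haem-binding factor, was the assembly factor with the largest difference in the other direction. It was at 9.41, 10.2, 10.4 and 9.60 CPM in the pairs and at 8.24, 13.8 and 19.3 CPM in low yield. All pairs lay below the low-yield median but inside the range (-0.46 ± 0.25 (SE) in log2 fold change, adjusted p = 0.612). COX15 (LOC117415350), which makes haem A, stood at 46.0 ± 13.9 against 47.3 ± 17.9 CPM (-0.04 in log2 fold change, adjusted p = 0.974), and the difference was 0.06 without pair 1+5.

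**Figure D4:**
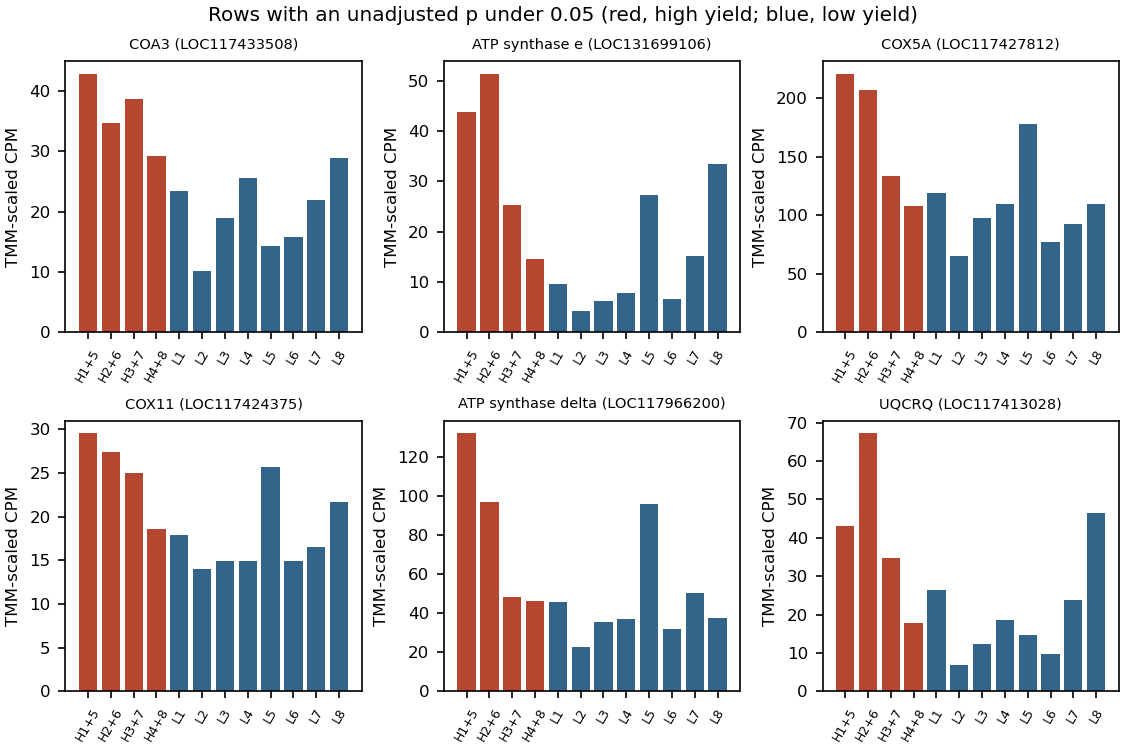
TMM-scaled CPM in each sample for the 6 rows with an unadjusted p under 0.05, in order of p. Red bars are the 4 high-yield pairs and blue bars the 8 low-yield libraries. In COA3 each pair exceeds each low-yield library, while in the other 5 rows low-yield libraries, low-yield 5 or 8 among them, reach into the range of the pairs. Low-yield 1, 4, 7 and 8 exceed pair 4+8 in UQCRQ, and low-yield 1, 4, 5 and 8 do so in COX5A.

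The paired gene copies were also compared with each other. For 27 subunits or factors there were exactly 2 rows, both tested and both with a mean of at least 5 CPM, and in all 27 the copies lay on different sequences of the assembly. The log2 fold changes of both copies had the same sign in 25 of the 27. Since 78 of the 88 members at that level were positive, most copies would share a sign without any link between them. This count therefore says nothing about such a link. The share of the copy with the higher mean, in percent of both copies, varied over the 12 samples by 18.2 percentage points in the median subunit and by under 20 points in 16. UQCRC1 varied least, from 56.9% to 64.0%, and ATP synthase alpha lay between 58.9% and 68.6%.

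In 5 subunits the share varied by 30 points or more. The UQCR11 copy LOC117966144 took 48.4% in pair 1+5, 49.7% in pair 2+6 and 48.3% in low-yield 5, and between 91.1% and 100% in each of the other samples. The COX7C copy LOC131697524 took 53.9% in pair 1+5, 55.8% in low-yield 5 and 68.0% in pair 2+6. It took 65.8% in low-yield 3 and reached 92.6% in low-yield 1. The ATP synthase epsilon copy LOC117423490 took 90.7%, 94.9% and 96.8% in pairs 1+5 and 2+6 and low-yield 5 and between 58.6% and 77.3% elsewhere. ATP synthase delta ranged from 37.0% in low-yield 3 to 74.9% in pair 1+5, and COX7B from 53.0% in low-yield 4 to 85.0% in low-yield 7. Pairs 1+5 and 2+6 and low-yield 5 thus had the 3 lowest shares in UQCR11 and the 3 highest in epsilon. They also had the 3 highest in delta, where pair 2+6 and low-yield 5 were at 55.3% and 61.3%. In COX7C they were not the 3 lowest, since low-yield 3 lay below pair 2+6. In COX7B they were at 78.5%, 82.6% and 81.6%, between the other samples. The counting program is not given in the sources used here, and since the copies may share reads, the values of single copies are uncertain.

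**Figure D5:**
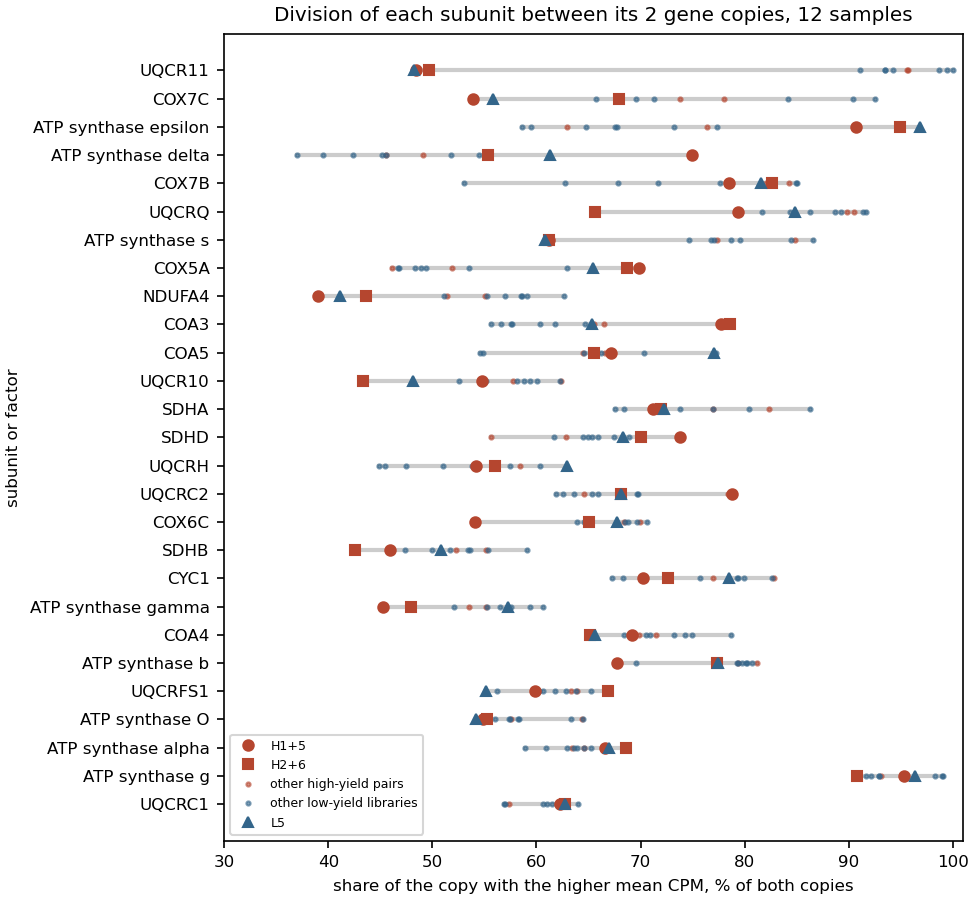
Share of the copy with the higher mean CPM (horizontal axis, percent of both copies) for 27 subunits or factors with 2 gene copies. Points are the 12 samples, with pairs 1+5 (circle) and 2+6 (square) and low-yield 5 (triangle) drawn large, and grey lines span the range. UQCR11 at the top spans 51.7 points and UQCRC1 at the bottom 7.12 points.

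Genes that work beside these complexes were read from the same fit, in which no gene passed an adjusted p of 0.05. Of the nuclear genes of complex I, the entry point for electrons from NADH, 64 of 68 had a positive log2 fold change with a median of 0.43, and 8 were higher at an unadjusted p of 0.05 (background 5.21%). Cytochrome c had 2 of 3 rows positive (median 0.15), and 28 rows of other assembly factors of complexes III to V had 18 positive (median 0.25). A row described as ubiquinol-cytochrome-c reductase complex assembly factor 2 (LOC131702777) stood at 16.3 ± 5.65 against 8.88 ± 3.43 CPM (0.88 ± 0.36 (SE) in log2 fold change, edgeR adjusted p = 0.571). The ATP synthase coupling factor 6, COX17 and COX20 rows, which the wording of the rule did not cover, were positive in 6 of 6 (median 0.52). Rows that carry an orthology identifier of these complexes under another description were positive in 7 of 7 (median 0.39).

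The exchange of ATP, ADP and phosphate across the mitochondrial membranes is handled by carriers and channels, of which 13 of 17 rows were positive (median 0.23). VDAC2 (LOC117415867), a channel of the outer membrane, was at 248, 210, 217 and 213 CPM in the pairs and at 83.9, 160 and 186 CPM in low yield. All 4 pairs lay above all low-yield libraries, as in 0.4% of all tested genes (0.54 ± 0.21 (SE) in log2 fold change, edgeR adjusted p = 0.571). The tricarboxylic acid cycle shares succinate dehydrogenase with the respiratory chain. Its other enzymes had 11 of 22 rows positive and a median of 0.01, near the -0.02 of all genes.

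Regulators of mitochondrial gene expression had 8 of 16 rows positive, with 2 higher and 2 lower at an unadjusted p of 0.05 (backgrounds 5.21% and 3.36%). The packaging and transcription factor TFAM (LOC117414814) was at 25.5, 27.0, 25.3 and 30.6 CPM in the pairs and at 6.84, 14.4 and 18.7 CPM in low yield, with all 4 pairs above all low-yield libraries, a pattern of 0.4% of all tested genes (0.96 ± 0.26 (SE) in log2 fold change, edgeR adjusted p = 0.566). The transcription factor tfb2m was at 72.8 ± 9.93 against 52.7 ± 8.31 CPM (0.46 ± 0.17 (SE) in log2 fold change, adjusted p = 0.566). Both rows of the mitochondrial RNA polymerase had log2 fold changes on the other side, -0.52 (LOC117401456) and -0.45 (LOC117428956).

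The mitochondrial genome encodes subunits of complexes III to V and of complex I. Summed over its 13 rows, of which 5 matched the wording of the rule, it stood at 1584, 708, 618 and 526 CPM in the pairs and at 114, 303 and 10662 CPM as the lowest, median and highest low-yield value, with 1504 CPM in low-yield 2. All pairs lay above the low-yield median, and low-yield 5 lay far above every other sample. The 13 log2 fold changes were all negative in edgeR's test, with a median of -0.98. Without low-yield 5, however, the median was 1.19 with 12 of 13 positive. DESeq2 on the same samples, with its default replacement of outlying counts, gave 0.69 with 11 of 13 positive. The median was also positive with the replicate number as a block over 16 libraries (1.13, 12 of 13 positive) and with limma on log2(FPKM + 0.1) and log2(FPKM + 1) (0.78 and 0.17, 10 of 13 positive in each). The direction for the mitochondrial genome therefore changed with low-yield 5 and with the test. Whether the change with the test is separate from that with low-yield 5 was not tested. Libraries were made from poly(A)-captured RNA, and the part of that capture in these values was not tested.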

How the data were processed

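Ovary RNA was measured in 16 libraries. Per the labels' protocols, poly(A) RNA was captured and the second strand was digested; per the submitters' processing notes, adapters were trimmed with cutadapt 1.9. For the aligner, counting program and genome build, nothing is given in the sources used here. Per the file headers, the deposited table holds counts and FPKM for 41685 genes in each library; neither was altered by a step known here. No genome was at hand, so positions and sequences are not printed.

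Counts of each near-identical high-yield pair were summed, because a pair differed by 4.19 to 5.54 times Poisson variance and all other libraries by at least 20.1 times. edgeR 4.0.16 (filterByExpr, TMM, robust quasi-likelihood F test, two-sided, Benjamini-Hochberg over all tested genes, threshold 0.05) compared 4 pairs with 8 low-yield libraries. The labels describe 8 females in each group, so the pairs go against separate fish in high yield; which is right is not known here. The pipeline was tested on simulated data.

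The members, lists and tests were chosen with earlier results of these data known. Named members were, in each complex, the 2 rows with the highest mean FPKM and the 2 with the smallest p in each direction. The 1 row with the largest change against the median was added. So were the highest-FPKM row of fixed subunits, which is not always the row with the higher CPM, and all rows of the isoform families. Other rows named in the text were chosen after their values were seen. These were the COX5B, UQCRC2, UQCRFS1, UQCR11, COA3, UQCRQ and ATP synthase alpha, gamma and delta second rows, subunit c and f rows, sdhaf1 and sdhaf2. Pathway genes were matched by symbol or description, at most 2 a list by smallest p, with the RNA polymerase rows added after seeing them. The list for ATPase inhibitory factor 1 matched no row. Marker lists were summed over all their rows: endothelium 21, leukocytes 24, granulosa 18 and red blood cells 12, the last at 19.6 to 62.0 CPM in high and 21.1 to 73.2 CPM in low yield. Alternatives were DESeq2 1.42.0, limma 3.58.1 on log2(FPKM + 1) and log2(FPKM + 0.1), other scalings and filters, 16 separate libraries, and leaving out samples. R 4.3.3 and Python 3.11.15 were used.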

Additional observations from a re-analysis of the deposited data

Results flagged for a closer look

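Within-group outliers were sought by Dixon's ratio in 106 sets of values, and 14 had a sample far from the others; chance flags about 1 in 20. In high yield, pair 3+7 stood apart for SDHB (LOC117425464, 91.0 CPM, next 46.4), COX6B (LOC131725030, 199.5 CPM, next 95.7), COX7A (LOC117410769, 84.8 CPM, next 44.6), COX15 (LOC117415350, 66.6 CPM, next 40.8), the summed FPKM of complex IV (3967, next 2512) and that of all members (11098, next 8342). Both FPKM sums rest on the uncertain lengths given above. In CPM the sum of complex IV was 3175 in pair 3+7, next 2325. Pair 1+5 stood apart for COX4 (LOC117400045, 0.747 CPM, others 0) and COX8 (LOC117970850, 48.0 CPM, next 28.6).

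In low yield, library 5 stood apart for UQCR11 (LOC117401518, 14.3 CPM, next 3.67), COX6A (LOC117398324, 8.69 CPM, next 3.66), COX6B (LOC117431391, 3.46 CPM, next 0.447), COX7A (LOC117394711, 2.11 CPM, next 0.712) and ATP synthase delta (LOC117966200, 95.9 CPM, next 50.2). Low-yield 2 stood apart for COX6B (LOC131740188, 1.99 CPM, next 0.415).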

How the results depend on the processing

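The median log2 fold change of the members was positive under all 26 alternatives and no member passed an adjusted p of 0.05 in any of them (smallest 0.0686, in edgeR with 16 separate libraries). Over all genes, calls rose from 0 higher and 0 lower to 25 and 61 with DESeq2 and to 3 and 20 with 16 separate libraries. Members higher at an unadjusted p of 0.05, 6 in the reported test, were 15 with 16 libraries (9.13% of all genes), 14 with library size as the only scaling (4.89%), 12 and 14 with limma on log2(FPKM + 0.1) and log2(FPKM + 1) (3.55% and 3.99%), 3 of 57 with rows of one description summed (4.93%), 10 without low-yield 2 and 5 (8.59%), 1 without low-yield 2 and 6 (3.61%), and 1 to 15 when samples were left out one at a time (2.2% to 7.79%). Members lower were 1 with DESeq2 (5.56%), 2 with 16 libraries (10.7%) and 1 without low-yield 2 and 5 (4.37%). They were 0 to 1 when samples were left out one at a time (2.04% to 4.66%). Where no sample was removed and no rows were merged, the cause of these shifts was not tested. The replicate numbers of the 2 groups did not pair the libraries: the correlation of same-numbered libraries ran from -0.18 to 0.40, and 3 of 8 high-yield libraries correlated best with their own number. With the replicate number as a block over 16 libraries, 28 of 97 tested members were higher and 2 lower at an unadjusted p of 0.05, against 9.19% and 7.63% over all genes. Both fits over 16 libraries count each near-identical pair as 2 samples.

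Of 46 named rows tested, 14 changed sign somewhere, none of them called. With rows of one description summed, UQCRC2 (LOC117417923) was at 0.0012, COX4 (LOC117425666) at 0.24 and LOC117427699 at 0.052, COX6B (LOC131740188) at 0.94 and ATP synthase f (LOC117424389) at 0.47. Without low-yield 2 and 5, LOC117435820 was at -0.186, LOC131725052 at -0.0855, LOC117414968 at 0.0075, LOC117970850 at -0.042 and LOC117420623 at -0.17. Without low-yield 2 and 6, LOC117420714 was at -0.015, LOC117435820 at -0.0806, LOC117970850 at -0.18 and LOC117420623 at -0.11. LOC117435820 was at -0.14 with the replicate block and -0.076 with limma on log2(FPKM + 0.1). LOC131725052 was at -0.010 with high-yield libraries 1 to 4, and LOC117420623 at -0.0019 with libraries 5 to 8, -0.0006 with library size alone and -0.0076 at a mean FPKM of at least 1. When samples were left out one at a time, the range was -0.68 to 0.099 for LOC117966725, -0.49 to 0.17 for LOC117425666, -0.35 to 0.11 for LOC117427699, -0.13 to 0.42 for LOC117435820, -0.55 to 0.46 for LOC131725052, -0.0021 to 0.55 for LOC117398688, -0.15 to 0.25 for LOC117970850, -0.11 to 0.17 for LOC117420623 and -0.26 to 0.065 for LOC117415350. The effect of depth was not tested by thinning; the 12 members under 5 CPM rest on the fewest counts.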
